A study of Mus musculus with 8 samples.

Results

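WNT ligands, their receptors and their secreted antagonists were examined in a mouse thymic epithelial cell line. The group was taken by symbol: the Wnt, Fzd (Frizzled receptors) and Sfrp (secreted Frizzled-related proteins) genes, Dkk1 to Dkk4, Rspo1 to Rspo4, Lrp5, Lrp6, Axin2, Lef1, Wif1 and Ctnnb1. These rules found 48 symbols with 60 probes among 22911 symbols on the array, and each gene is represented by its brightest probe. Of the 48, 40 were measured well enough to be fitted, among 19023 genes in all, and 33 of these were well above background on all 8 arrays. By role, the 40 are 17 ligands, 9 Frizzled receptors, the 2 co-receptors, 5 secreted antagonists, 3 R-spondins, β-catenin, the 2 transcriptional readouts Axin2 and Lef1, and Fzd10os, which the rule takes by name but which is a transcript of the strand opposite Fzd10 and no receptor.

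WNT ligands are lipid-modified secreted proteins that bind a Frizzled receptor together with the co-receptor Lrp5 or Lrp6, which stops the destruction of β-catenin and lets it act in the nucleus with the TCF and LEF factors. Sfrp and Wif1 proteins bind WNT ligands outside the cell, Dkk proteins block the co-receptors, and R-spondins keep Frizzled receptors at the surface. In the thymus, epithelial cells make several WNT ligands, among them Wnt4, and WNT signals are known to bear on Foxn1, the transcription factor of thymic epithelium.

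The cells were TEC100.4, an immortalized line of cortical thymic epithelial origin, in 2 versions in which doxycycline switches on a mutant form of the transcription factor TFII-I (gene Gtf2i). The 4 groups were the δ-isoform line with doxycycline, the δ line without it, the β-isoform line with doxycycline and the β line without it, with 2 one-colour arrays each after 24 h. Since no treated line free of mutant protein was examined, an effect of doxycycline and one of the induced protein cannot be told apart, and the labels do not say whether a line is 1 clone or a pool. Whether arrays of 1 group stem from different cultures is not stated, and p-values then describe the spread among the arrays alone, which may be technical.

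All arrays shared 1 slide, treated ones above and untreated ones below, and slide row and treatment cannot be told apart. Between 43423 and 45156 probes were well above background on the treated arrays and between 39575 and 40755 on the untreated ones. The untreated δ replicate 1 had a defect: 87 of its 1008 square tiles (8 spots a side) deviated by over 0.3 on the log2 scale, 86 of them darker, against at most 4 tiles on any other array. Of the 12 cortical thymic markers listed, 8 were well above background on all arrays, among them Krt8, Krt18, Ccl25, Prss16 and Foxn1. Ly75 and Dll4 were so on 7 arrays. The same held on all arrays for 6 of 11 thymocyte and 3 of 5 myeloid markers, so this flag alone does not tell cell types apart. Psmb11 and Enpep, and the general epithelial genes Epcam and Cdh1, were not among the genes fitted, and no level is given for them. Mesenchymal genes such as Col1a1, Col1a2, Dcn and Vim were well above background on all arrays.

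Values below are log2 processed signals minus each array's 75th percentile, called log2 signals. They compare arrays for 1 probe and do not rank genes against each other, and a gene passed where limma, fitted over all 19023 genes, gave an adjusted p under 0.05. Genes whose transcripts were not measured well enough were Dkk1, Dkk2, Dkk3, Fzd10, Rspo2, Sfrp1, Wnt16 and Wnt3a, whose probes were well above background on 0 arrays, or on 1 for Dkk2 and Sfrp1. The spots of Wnt7b and of Sfrp2 lay in the dark area of the untreated δ replicate 1, and their values there are given with that in view.

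**Figure D1:**
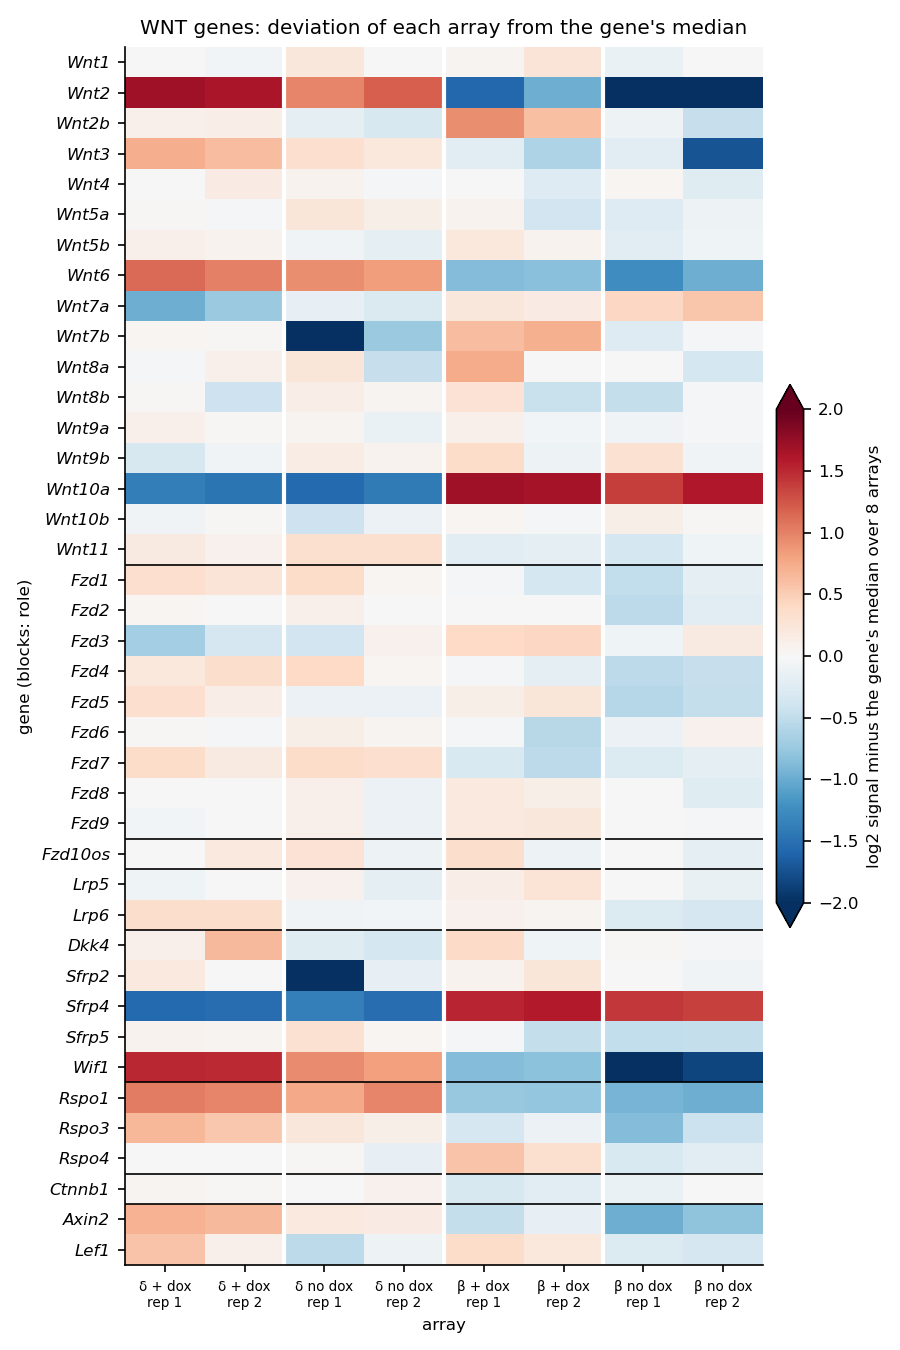
Each row is 1 of the 40 genes and each column 1 array. Colour gives the log2 signal minus the gene's median over the 8 arrays, red above and blue below, with horizontal lines between the roles. Wnt2, Wnt6, Rspo1 and Wif1 are redder in the δ columns, Wnt10a and Sfrp4 in the β columns, and the dark cells of Wnt7b and Sfrp2 stand on 1 array.

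The first comparison asked how the δ line differed from the β line in its WNT genes. With doxycycline 11 of the 40 passed, 7 higher and 4 lower in the δ line, against 15.3% of all genes tested (9.83% higher and 5.49% lower). Without doxycycline 12 passed, 9 higher and 3 lower, against 13.2% of all genes (7.84% higher and 5.33% lower). The 10 genes that passed in both, out of 11 with and 12 without doxycycline, had the same direction in both. The δ line had more signal of the ligands Wnt6 and Wnt2, the R-spondins Rspo1 and Rspo3, the receptor Fzd7, the antagonist Wif1 and Axin2. It had less of the ligands Wnt10a and Wnt7a and of the antagonist Sfrp4.

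Among the ligands, Wnt6, an activator of β-catenin signalling in epithelia, had log2 signals of 4.15 and 4.03 in treated δ cells, 3.94 and 3.85 in untreated δ cells, 2.16 and 2.18 in treated β cells, and 1.77 and 2.04 in untreated β cells. All 4 δ arrays lay above all 4 β arrays. The difference, δ minus β, was 1.92 ± 0.12 (SE, n = 2 and 2, limma adjusted p = 0.000361) with doxycycline and 2.00 ± 0.12 (adjusted p = 0.000284) without it.

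Wnt10a, a ligand known for its part in teeth and skin appendages, showed the opposite pattern. Its log2 signals were -1.06 and -1.12 in treated δ cells, -1.22 and -1.08 in untreated δ cells, 2.03 and 1.99 in treated β cells, and 1.72 and 1.94 in untreated β cells. The line difference was -3.10 ± 0.11 (limma adjusted p = 4.35e-05) with doxycycline and -2.98 ± 0.11 (adjusted p = 5.28e-05) without it. Wnt6 and Wnt10a are neighbours on chromosome 1, and their signals differed between the lines in opposite directions.

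Wnt2, a ligand with roles in lung and placenta, had log2 signals of -2.52 and -2.58 in treated δ cells, -3.23 and -3.01 in untreated δ cells, -5.78 and -5.19 in treated β cells, and -6.40 and -7.18 in untreated β cells. Its probe was well above background on all 4 δ arrays, on 1 treated β array and on no untreated β array. The probe was thus kept through the δ groups alone, and its adjusted p in either comparison is no separate support for the difference. With doxycycline the difference was 2.93 ± 0.30 (limma adjusted p = 0.00242). Without doxycycline it was at least 4.49-fold higher in the δ line (adjusted p = 0.000894), a bound that sets the δ mean against the lowest signal well above background on the β arrays, with measured means of -3.12 in δ cells and -6.79 in β cells. After normexp background correction, which shrinks differences of dim probes, the log2 difference was 1.37 with doxycycline and 1.58 without it, the second below the bound, which is 2.17 on the log2 scale.

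Wnt7a, a ligand of epithelia and neurons, lay lower in the δ line, with log2 signals of -5.21 and -4.98 in treated δ cells, -4.40 and -4.52 in untreated δ cells, -4.01 and -4.07 in treated β cells, and -3.82 and -3.68 in untreated β cells. The groups did not overlap. The difference was -1.05 ± 0.12 (limma adjusted p = 0.00316) with doxycycline and -0.71 ± 0.12 (adjusted p = 0.0125) without it. Without the untreated β replicate 2 the second was -0.65 (adjusted p = 0.0513), and after normexp the differences were -0.61 with doxycycline and -0.35 without it (adjusted p = 0.0628 for the second).

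Wnt11, a ligand of β-catenin-independent signalling, passed without doxycycline at 0.54 ± 0.11 (limma adjusted p = 0.0304), with log2 signals of 1.15 and 1.16 in untreated δ cells, against 0.48 and 0.74 in untreated β cells. In treated cells it read 1.02 and 0.92 in the δ line, against 0.63 and 0.64 in the β line (0.34 ± 0.11, adjusted p = 0.103). The call without doxycycline was lost without any array other than the untreated β replicate 2 (adjusted p between 0.0563 and 0.0882), and the gene's dimmer probe had differences of 0.12 with and 0.25 without doxycycline. The other ligands did not pass, and their differences lay between -0.64 and 1.09 with doxycycline. The value of 1.09 is that of Wnt3, whose probe was well above background on both treated δ arrays and on no β array. Its bound was 1.90-fold, which takes no account of the spread between arrays, and the gene did not pass (limma adjusted p = 0.162).

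**Figure D2:**
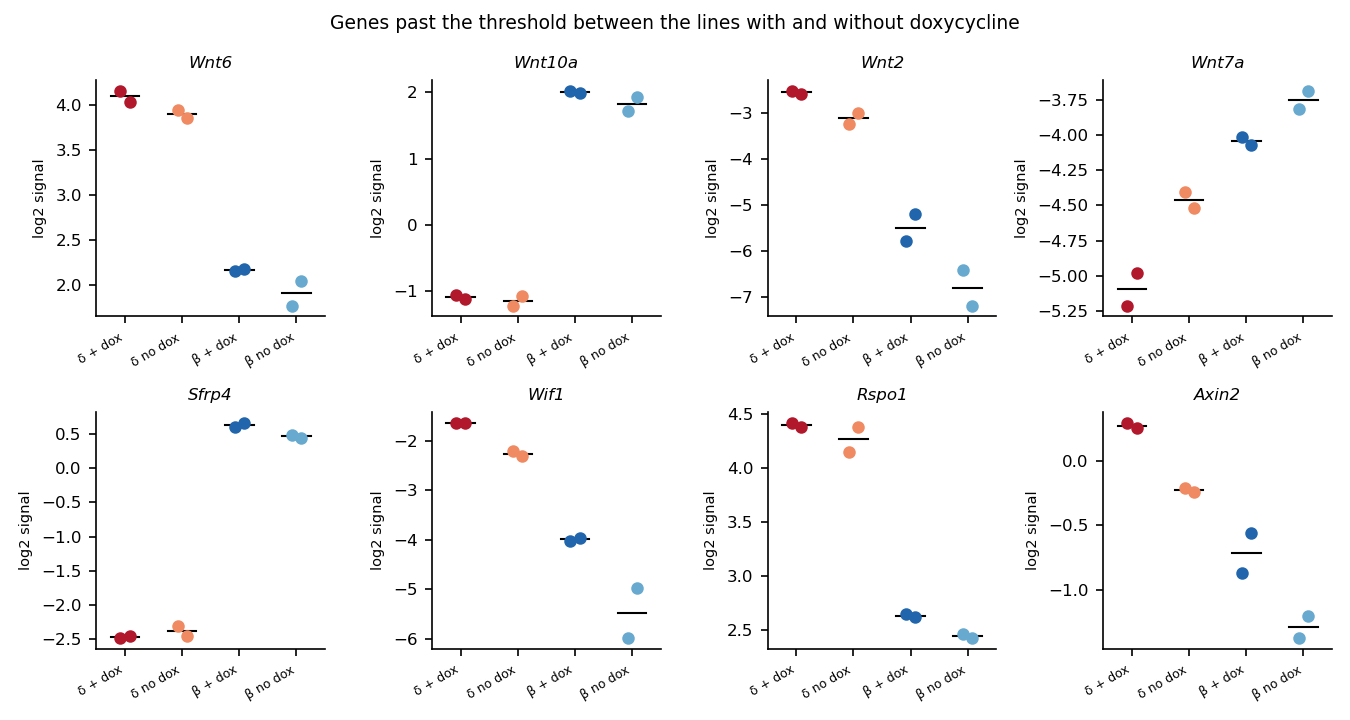
Log2 signal of 8 genes that passed between the lines both with and without doxycycline; each point is 1 array, the bars are means of 2 arrays, and the vertical axes differ between panels. The δ points lie above the β points for Wnt6, Wnt2, Wif1, Rspo1 and Axin2 and below them for Wnt10a, Wnt7a and Sfrp4.

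Among the Frizzled receptors, Fzd7 had log2 signals of 1.21 and 1.02 in treated δ cells, 1.20 and 1.18 in untreated δ cells, 0.53 and 0.31 in treated β cells, and 0.57 and 0.65 in untreated β cells. It lay higher in the δ line by 0.70 ± 0.12 (limma adjusted p = 0.0139) with doxycycline and 0.58 ± 0.12 (adjusted p = 0.0258) without it. The first call was lost without any of the treated β replicate 2 and the treated δ arrays (adjusted p of 0.0603 to 0.122). The second was lost without either treated δ array, either untreated β array or the untreated δ replicate 1 (between 0.0568 and 0.0976).

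Fzd4, a receptor for Norrin as well as WNT ligands, read 3.23 and 2.87 in untreated δ cells, against 2.31 and 2.38 in untreated β cells, and passed there (0.71 ± 0.14, limma adjusted p = 0.0275). In treated cells it read 3.04 and 3.19 in the δ line, against 2.79 and 2.63 in the β line (0.40 ± 0.14, adjusted p = 0.119). The call was lost without any array other than the untreated δ replicate 2 (adjusted p between 0.0505 and 0.108). Fzd3, known for axon guidance and planar polarity, lay lower in treated δ cells, at -3.94 and -3.60, against -2.85 and -2.84 in treated β cells (-0.92 ± 0.20, limma adjusted p = 0.0318). Without doxycycline the lines overlapped for Fzd3, with -3.63 and -3.16 in δ cells, against -3.35 and -3.07 in β cells, and its call was lost without any one of the 4 treated arrays (adjusted p between 0.0847 and 0.194). The brightest Frizzled probe, that of Fzd2, read between 3.83 and 3.92 on the δ arrays and between 3.31 and 3.84 on the β arrays, and did not pass (adjusted p = 0.958 with and 0.0872 without doxycycline). Neither co-receptor passed between the lines.

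Of the 5 secreted antagonists measured, Sfrp4 and Wif1 passed, in opposite directions. Sfrp4, whose product binds WNT ligands, had log2 signals of -2.48 and -2.45 in treated δ cells, -2.30 and -2.45 in untreated δ cells, 0.60 and 0.66 in treated β cells, and 0.48 and 0.45 in untreated β cells. The difference was -3.09 ± 0.09 (limma adjusted p = 2.8e-05) with doxycycline and -2.84 ± 0.09 (adjusted p = 3.46e-05) without it, an 8.53-fold and a 7.17-fold lower signal in the δ line.

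Wif1, WNT inhibitory factor 1, read -1.64 and -1.65 in treated δ cells, -2.20 and -2.32 in untreated δ cells, -4.02 and -3.97 in treated β cells, and -5.98 and -4.98 in untreated β cells. All 4 δ arrays lay above all 4 β arrays. It was higher in the δ line by 2.35 ± 0.30 (limma adjusted p = 0.00535) with doxycycline and by 3.22 ± 0.30 (adjusted p = 0.00148) without it, where 1 of the untreated β arrays was well above background. After normexp these differences were 1.54 and 1.85. Sfrp5 read between -2.33 and -2.06 on the δ arrays and between -2.86 and -2.40 on the β arrays (adjusted p = 0.248 with and 0.0549 without doxycycline).

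Among the R-spondins, Rspo1 had log2 signals of 4.42 and 4.38 in treated δ cells, 4.15 and 4.38 in untreated δ cells, 2.65 and 2.62 in treated β cells, and 2.46 and 2.43 in untreated β cells. It lay 3.40-fold higher in the δ line with doxycycline (log2 difference 1.76 ± 0.10, limma adjusted p = 0.000294) and 3.53-fold higher without it (1.82 ± 0.10, adjusted p = 0.000238). Rspo3 read 0.98 and 0.85 in treated δ cells, 0.54 and 0.43 in untreated δ cells, -0.02 and 0.20 in treated β cells, and -0.55 and -0.12 in untreated β cells. Its line differences were 0.83 ± 0.17 with doxycycline (limma adjusted p = 0.0255) and 0.83 ± 0.17 without it (adjusted p = 0.0269). The first was lost without any one of the 4 treated arrays (adjusted p between 0.0694 and 0.167), the second without either treated δ array, the untreated β replicate 1 or the untreated δ replicate 1 (between 0.065 and 0.0852). Rspo4 did not pass, with -3.66 and -3.63 in treated δ cells, against -3.07 and -3.33 in treated β cells (adjusted p = 0.0634).

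Axin2, a scaffold of the β-catenin destruction complex and a common transcriptional readout of the pathway, read 0.29 and 0.25 in treated δ cells, -0.21 and -0.24 in untreated δ cells, -0.87 and -0.56 in treated β cells, and -1.38 and -1.20 in untreated β cells. It lay higher in the δ line by 0.99 ± 0.13 with doxycycline (limma adjusted p = 0.00587), which was lost without either treated δ array (adjusted p = 0.0621 and 0.0529), and by 1.06 ± 0.13 without doxycycline (adjusted p = 0.00417). Its dimmer probe, well above background on all arrays but the untreated β ones, where it was on neither, had a difference of 0.60 with doxycycline. The other readout, Lef1, did not pass, with differences of 0.05 ± 0.20 and -0.01 ± 0.20 (adjusted p = 0.90 and 0.977). β-catenin itself, Ctnnb1, read between 3.44 and 3.54 on the δ arrays and between 3.12 and 3.45 on the β arrays, and did not pass (adjusted p = 0.0928 with and 0.518 without doxycycline).

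**Figure D3:**
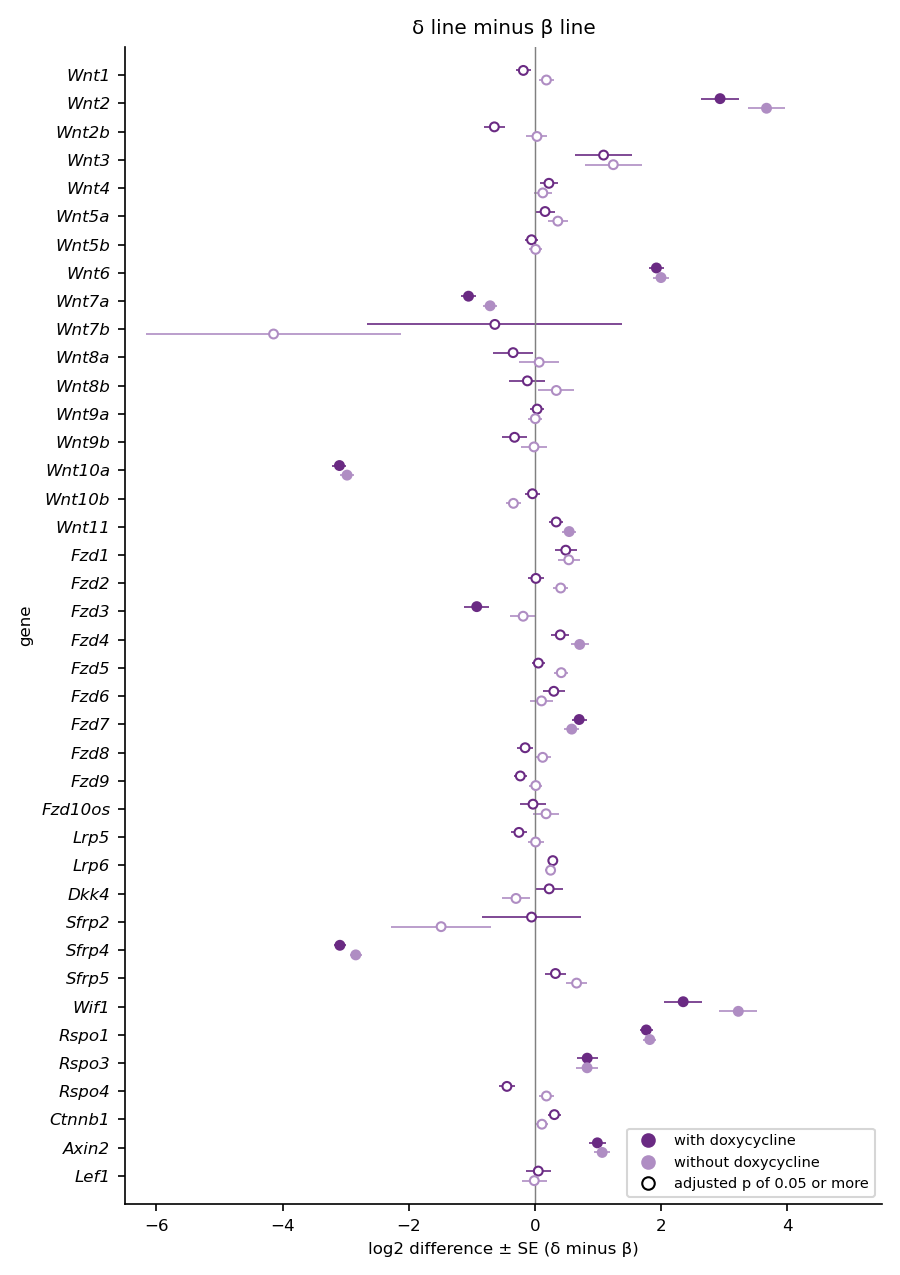
Log2 difference, δ minus β line, for each of the 40 genes, with doxycycline (dark) and without it (light); bars are standard errors from the fit and open points did not pass. Sfrp4 and Wnt10a lie near -3 in both, while Wnt6, Rspo1, Wnt2 and Wif1 lie at 1.76 or above, where the light point of Wnt2 is set against β arrays on which its probe was not well above background, and the wide bars of Wnt7b and Sfrp2 come with the dark area of 1 untreated δ array.

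Promoter windows of RefSeq (GRCm38.p6, the 250 bases before a transcript's start) were held for 31 of the 48 genes, in 38 windows. They are shown for 4 genes that were higher in the δ line in both comparisons, a readout, an R-spondin and a pair of ligands. Capitals mark CG dinucleotides, which 92.1% of all 32851 windows hold.
Axin2, chr11:108920099-108920348, plus strand: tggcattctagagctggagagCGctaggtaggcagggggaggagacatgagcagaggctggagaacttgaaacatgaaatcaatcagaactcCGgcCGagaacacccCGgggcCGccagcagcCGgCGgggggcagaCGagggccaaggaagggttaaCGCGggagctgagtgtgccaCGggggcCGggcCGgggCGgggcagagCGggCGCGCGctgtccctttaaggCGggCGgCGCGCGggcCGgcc
Wnt6, chr1:74771642-74771891, plus strand: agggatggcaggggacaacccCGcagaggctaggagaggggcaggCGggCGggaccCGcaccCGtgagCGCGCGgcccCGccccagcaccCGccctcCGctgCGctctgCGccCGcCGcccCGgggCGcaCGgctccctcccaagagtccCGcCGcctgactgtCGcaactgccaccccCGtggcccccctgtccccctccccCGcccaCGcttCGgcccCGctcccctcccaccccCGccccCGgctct
Rspo1, chr4:124986180-124986429, plus strand: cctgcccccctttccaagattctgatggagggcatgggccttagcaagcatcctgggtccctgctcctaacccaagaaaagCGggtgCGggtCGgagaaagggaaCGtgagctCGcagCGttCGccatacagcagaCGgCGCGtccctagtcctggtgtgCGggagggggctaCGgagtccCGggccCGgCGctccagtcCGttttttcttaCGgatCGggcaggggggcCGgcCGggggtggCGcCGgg
Wnt2, chr6:18030446-18030695, minus strand: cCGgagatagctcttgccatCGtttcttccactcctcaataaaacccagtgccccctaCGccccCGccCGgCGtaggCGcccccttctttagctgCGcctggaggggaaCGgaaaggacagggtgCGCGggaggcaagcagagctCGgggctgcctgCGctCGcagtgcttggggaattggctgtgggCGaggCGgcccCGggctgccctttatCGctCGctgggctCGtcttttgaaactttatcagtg
These windows hold 24 CG dinucleotides in Axin2, 28 in Wnt6, 22 in Rspo1 and 20 in Wnt2, against a median of 22 over the windows of the group and 6 over all windows. The median GC content was 67.4% over the group's windows and 52.4% over all. A TCF/LEF word, CTTTG followed by any 2-letter run of A and T, was searched on both strands and overlaps no CG, and it occurs in none of these 4 windows. They were found before 5 of the 31 genes (Dkk1, Fzd7, Lef1, Wnt11 and Wnt5b) and before 16.8% of all 27025 genes.

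The next comparison asked what doxycycline changed. In neither line alone did a gene of the group pass: 0 of 40 in the δ line, against 0.0736% of all genes, and 0 of 40 in the β line, against 0.247%. At an unadjusted limma p under 0.05 there were 7 of 40 in the δ line, against 15% of all genes, and 13 of 40 in the β line, against 18.2%. In the δ line 25 of 40 lay above zero, against 50.4% of all genes (median 0.07, against 0.00 over all genes). In the β line 34 of 40 did, against 55.1% of all genes (median 0.23, against 0.03 over all genes). By level, the group's median in the β line was 0.30 for its 18 genes in the dimmest tertile of all genes, 0.20 for 12 in the middle tertile and 0.23 for 10 in the brightest, against 0.12, 0.00 and -0.02 over all genes of those tertiles.

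Treated and untreated arrays did not overlap for 16 genes higher (30.7% of all genes were) and 7 lower (27.4%) in the δ line, and for 25 higher (26.2%) and 3 lower (20.7%) in the β line. In both lines at once 13 were higher, against 11.3% of all genes: Axin2, Fzd5, Lef1, Lrp6, Rspo1, Rspo3, Sfrp2, Wif1, Wnt2, Wnt2b, Wnt5b, Wnt6 and Wnt7b. Wnt7a alone was lower in both, against 10.6% of all genes. For Wnt7b and Sfrp2 the untreated δ value includes the dark area, and the untreated β values of Wnt2 were not well above background.

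Averaged over both lines, 5 of 40 genes passed, against 3.13% of all genes. The co-receptor gene Lrp6, the receptor gene Fzd5, the ligand Wnt2b and Axin2 were higher with doxycycline (1.52% of all genes were) and Wnt7a was lower (1.6%). None of these 5 passed after normexp, where the 2 genes that did, Wif1 and Wnt2, were higher and were others. After median centring Wnt2b alone passed, higher. None of the 5 passed without any one of the treated arrays or of the untreated β arrays, with adjusted p between 0.0581 and 0.198. Without the untreated δ replicate 1, Axin2, Lrp6 and Wnt7a did not pass (adjusted p = 0.059, 0.0534 and 0.0719). Without the untreated δ replicate 2, which leaves the array with the dark area as the only untreated δ sample, 10 genes passed on average and 3 in the δ line, with Lef1, Sfrp2, Wif1, Wnt2 and Wnt7b added to the 5. With the slide column as a replicate block or with the signal before multiplicative detrending, which ran on 1 of the treated arrays and on all 4 untreated ones, 0 of the 40 passed, while 22.5% of all genes and 13 of the 40 had an unadjusted limma p under 0.05 as reported.

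Lrp6, which with Lrp5 completes the receptor for β-catenin signalling, had log2 signals of 4.16 and 4.15 with and 3.74 and 3.74 without doxycycline in the δ line, and of 3.88 and 3.86 with and 3.52 and 3.46 without it in the β line. Treated arrays lay above untreated arrays in both lines, and the mean difference was 0.40 ± 0.06 (limma adjusted p = 0.0335). Its dimmer probe had differences of 0.03 in the δ line and 0.20 in the β line, and after normexp the mean difference of the brightest probe was 0.25. Lrp5 read 2.04 and 2.12 with and 2.22 and 1.94 without doxycycline in the δ line, and 2.27 and 2.40 with and 2.15 and 1.99 without it in the β line (mean difference 0.14 ± 0.09, adjusted p = 0.42).

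Fzd5, a Frizzled receptor of β-catenin signalling, read -1.97 and -2.17 with and -2.41 and -2.41 without doxycycline in the δ line, and -2.19 and -2.06 with and -2.88 and -2.78 without it in the β line. The difference was 0.34 ± 0.11 in the δ line (limma adjusted p = 0.278), 0.71 ± 0.11 in the β line (adjusted p = 0.0646) and 0.52 ± 0.08 on average (adjusted p = 0.0335). A dimmer probe of Fzd5 did not share this, with 0.04 in the δ line and 0.13 in the β line, and as a mean over probes the average was 0.31 (adjusted p = 0.0811). The other 8 Frizzled genes lay between -0.19 and 0.22 on average.

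Among the ligands, Wnt2b, a ligand of β-catenin signalling, read -2.71 and -2.69 with and -2.99 and -3.14 without doxycycline in the δ line, and -1.89 and -2.22 with and -2.92 and -3.28 without it in the β line. The mean difference was 0.71 ± 0.12 (limma adjusted p = 0.0405), with 0.37 ± 0.17 in the δ line and 1.04 ± 0.17 in the β line. Wnt7a, whose values stand above, fell by 0.46 on average (± 0.08, adjusted p = 0.0453), with -0.63 ± 0.12 in the δ line and -0.29 ± 0.12 in the β line, and after normexp the average was -0.22. Wnt2 had a difference of 0.57 ± 0.30 in the δ line and did not pass there or on average (adjusted p = 0.0756 for the average). In the β line its probe was well above background on 1 treated and on no untreated array, and no size can be given.

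Wnt4 read 2.91 and 3.07 with and 2.98 and 2.87 without doxycycline in the δ line, and 2.90 and 2.64 with and 2.94 and 2.66 without it in the β line. It moved by less than its standard error, 0.02 ± 0.10 on average. Wnt9a, likewise among the brightest ligand probes, lay between 2.29 and 2.52 on all 8 arrays, with an average of 0.08 ± 0.08. Wnt8a read -3.70 and -3.55 with and -3.42 and -4.12 without doxycycline in the δ line, and -2.91 and -3.65 with and -3.67 and -4.0 without it in the β line, a spread as wide as its difference in the β line (0.55 ± 0.32).

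The ligand Wnt7b was read by a pair of probes. The log2 signals of its brightest probe were 1.01 and 0.98 with and -6.85 and 0.22 without doxycycline in the δ line, and 1.59 and 1.67 with and 0.71 and 0.95 without it in the β line. The difference of 4.31 ± 2.02 in the δ line rests on the value in the dark area. Its other probe, whose spots lay outside that area, read -0.58 and -0.52 with and -0.50 and -0.77 without doxycycline in the δ line, a difference of 0.09, and 0.10 and -0.05 with and -0.50 and -0.33 without it in the β line, a difference of 0.44. Sfrp2 read -3.83 and -4.03 with and -6.93 and -4.20 without doxycycline in the δ line, and lay between -4.10 and -3.79 on the β arrays.

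**Figure D4:**
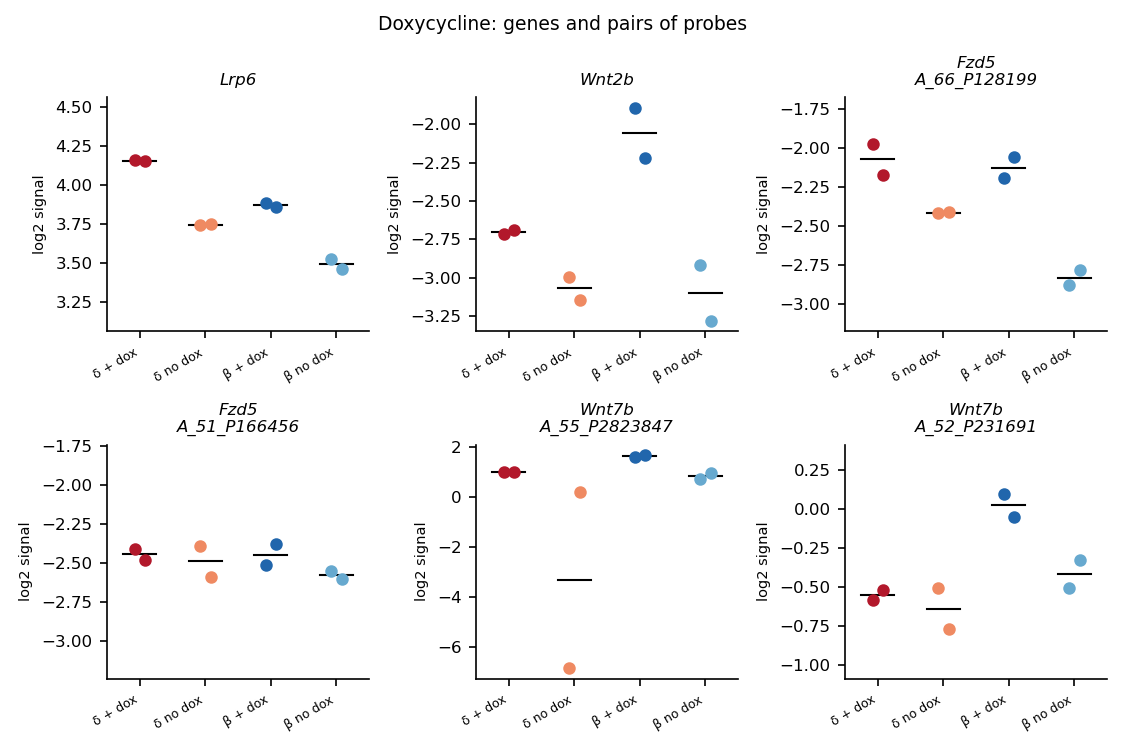
Log2 signal per array for Lrp6, Wnt2b and the probe pairs of Fzd5 and Wnt7b, with means of 2 arrays as bars and vertical axes that differ between panels. Treated points lie above untreated points in both lines for Lrp6, Wnt2b and the first Fzd5 probe but not for the second, and the low point of the first Wnt7b probe is the untreated δ replicate 1.

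Axin2 was higher with doxycycline by 0.50 ± 0.13 in the δ line (limma adjusted p = 0.231), by 0.57 ± 0.13 in the β line (adjusted p = 0.104) and by 0.54 ± 0.09 on average (adjusted p = 0.0422). Its dimmer probe had a difference of 0.50 in the δ line, and in the β line it was not well above background without doxycycline. Lef1, a nuclear partner of β-catenin, read -3.75 and -4.21 with and -4.84 and -4.42 without doxycycline in the δ line, and -3.95 and -4.10 with and -4.58 and -4.66 without it in the β line. All treated arrays lay above the untreated arrays of their line, and the average of 0.62 ± 0.14 did not pass (adjusted p = 0.0756). Ctnnb1 had differences of 0.00 in the δ line and -0.20 in the β line and did not pass.

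Of the antagonists and R-spondins none passed for doxycycline. Wif1 came nearest, with 0.62 ± 0.30 in the δ line, 1.49 ± 0.30 in the β line, where 1 of the untreated arrays was well above background, and 1.05 ± 0.21 on average (limma adjusted p = 0.0583), and it passed without either untreated β array. Rspo3 lay 0.43 ± 0.17 higher in both lines. Rspo4 read -3.66 and -3.63 with and -3.63 and -3.82 without doxycycline in the δ line, and -3.07 and -3.33 with and -3.95 and -3.85 without it in the β line, where its difference was 0.70 ± 0.12 (adjusted p = 0.0745). Rspo1 and Sfrp4, with their large line differences, had mean doxycycline differences of 0.16 ± 0.07 and 0.04 ± 0.07.

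**Figure D5:**
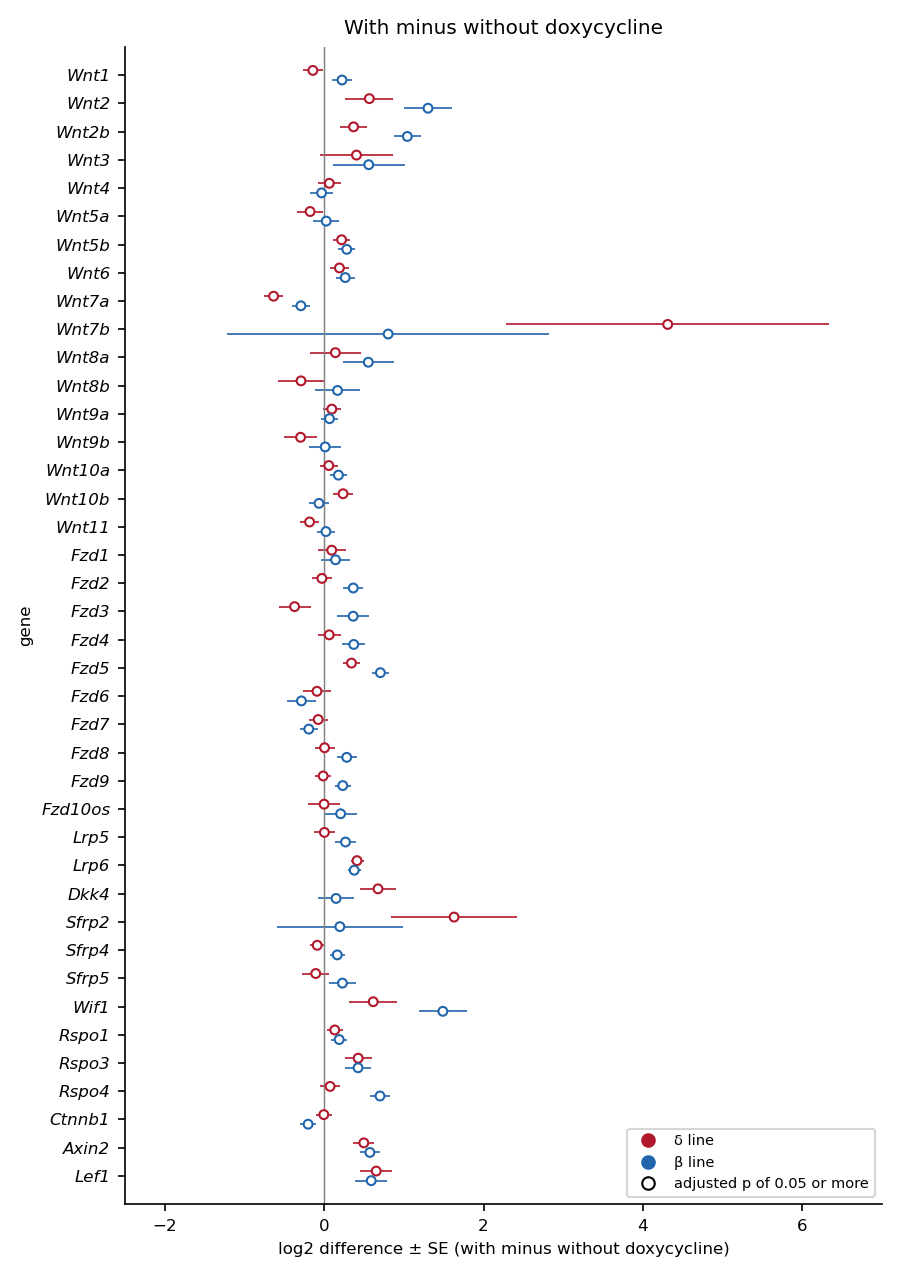
Log2 difference, with minus without doxycycline, in the δ line (red) and the β line (blue) for each of the 40 genes; bars are standard errors from the fit, and open points did not pass within that line, which holds for all of them. Most blue points lie above zero, 34 of 40 (55.1% of all genes do), and 25 of 40 red points do (50.4% of all genes).

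The doxycycline differences of the lines were also set against each other. The group's median of δ minus β was -0.20, against 0.01 over all genes, and 12 of the 40 lay above zero, against 50.9% of all genes. None passed in limma (0 of 40, against 0.00526% of all genes), and 3 of 40 had an unadjusted p under 0.05, against 7.6% of all genes. The values of Wif1, Fzd3 and Wnt2b were -0.87 ± 0.42, -0.74 ± 0.28 and -0.68 ± 0.23, with adjusted p of 0.645 or more. This is not the set of genes with an unadjusted p under 0.05, and Rspo4 had a value of -0.63. Nor are these the largest values, which were 3.51 for Wnt7b and 1.43 for Sfrp2, both with the dark area. Without the untreated δ replicate 2, the gene count was 2.

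Other genes of the pathway were counted by lists of its steps, 97 genes of which 91 were measured. For doxycycline averaged over both lines 4 of the 91 rose, against 1.52% of all genes, and 1 fell, against 1.6%. Those that rose were Prickle1, Celsr1 and Ankrd6, of planar cell polarity, and Sox9 of the target gene list, by 0.41 ± 0.06, 0.39 ± 0.07, 0.62 ± 0.11 and 0.58 ± 0.10 (limma adjusted p of 0.0425 or less), and Myc of the target list fell by 0.39 (± 0.06, adjusted p = 0.038). In each line alone 0 of 91 passed in limma.

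Between the lines, 21 of these 91 genes were higher and 6 lower in the δ line with doxycycline, against 9.83% and 5.49% of all genes. Without it 18 were higher and 4 lower, against 7.84% and 5.33% of all genes. Both counts include Nkd1, Prickle2 and Pygo1, higher, and Ror2, lower, whose probes were kept through groups of 1 line alone. Their passing is no separate support for a difference. Ror2, a WNT receptor used by Wnt5a, was well above background on the 4 β arrays and on no δ array. It lay at least 48.5-fold lower in the δ line with doxycycline (limma adjusted p = 2.81e-05) and at least 26.4-fold lower without it (adjusted p = 5.33e-05). Since its probe was kept through the β groups alone, these adjusted p are no separate support for the difference. Wnt5a itself read between 1.90 and 2.16 on the δ arrays and between 1.53 and 1.99 on the β arrays and did not pass. Prickle1, which acts in planar polarity, was higher in the δ line by 3.91 ± 0.09 with and 4.03 ± 0.09 without doxycycline (adjusted p = 1.03e-05 for the first).

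Of the 16 nuclear factors, 6 were higher and 0 lower in the δ line in limma in each comparison, to be read against the same shares of all genes. Among them Tcf7, a TCF factor, was higher by 0.70 ± 0.12 (adjusted p = 0.0147) with and by 0.89 ± 0.12 (adjusted p = 0.00595) without doxycycline. The 6 of each comparison include Pygo1, whose probe was well above background on the 2 treated δ arrays alone. Its passing is thus no separate support for a difference. Of 23 measured target genes, 7 were higher and 3 lower with doxycycline, against 9.83% and 5.49% of all genes. These include Sox9, higher by 1.64 ± 0.14 (limma adjusted p = 0.00108), and Myc, lower (-0.75 ± 0.09, adjusted p = 0.00396). Another is Nkd1, an inducible inhibitor of the pathway that was not well above background in the β line and was at least 3.26-fold higher (adjusted p = 0.000819). The probe of Nkd1 was kept through the δ groups alone, so its adjusted p is no separate support for the difference. Of the 4 genes for WNT secretion and lipid modification, 0 passed in limma in either comparison.

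Some markers of cell types passed between the lines. Their counts are to be read against all genes, of which 9.83% were higher and 5.49% lower with doxycycline, and 7.84% and 5.33% without it. Of the 5 measured medullary thymic markers of 8 listed, Krt14 alone passed, lower in the δ line (-3.67 ± 0.15 with doxycycline). The summed linear signal of the list was 3.24 to 3.88 in treated δ cells, 3.68 to 4.17 in untreated δ cells, 28.3 to 33.0 in treated β cells, and 31.0 to 36.7 in untreated β cells, in units of each array's 75th percentile. Krt14 made up most of it in β cells, and the other 4 markers together had 1.1 to 1.46 in treated δ cells and 1.61 to 1.71 in treated β cells. Fezf2, Ccl21a and Cldn3 of that list were not among the genes fitted, and no level is given for them. Of 4 measured general epithelial markers of 6 listed, 2 were lower in treated δ cells, and their summed signal was 10.7 on both treated δ arrays and 26.3 to 26.4 in treated β cells. Of the 10 measured cortical markers of 12 listed, 1 was higher and 2 lower in the δ line with doxycycline, and 1 higher and 3 lower without it, with summed signals of 79.7 to 81.8 in treated δ cells and 87.5 to 96.5 in treated β cells. Of 4 measured endothelial markers of 5 listed, Kdr alone passed, higher in the δ line by 1.54 ± 0.10 with doxycycline (limma adjusted p = 0.00038) and 1.86 ± 0.10 without it (adjusted p = 0.000165). The list's summed signal was 5.5 to 5.66 in treated δ cells and 2.22 to 2.42 in treated β cells. Most of it came from Kdr, with mean log2 signals of 2.31 and 0.77 there. Pecam1, Cdh5 and Tek differed by -0.09, 0.36 and 1.29 with doxycycline, and by -0.40, -2.06 and 1.98 without it. Of 4 measured myeloid markers of 5 listed, Cd68 was lower in treated δ cells (-1.04 ± 0.17, limma adjusted p = 0.0139), and the summed signal was 14.9 to 15.2 in treated δ cells and 19.8 to 22.7 in treated β cells. None of the 8 measured thymocyte markers of 11 listed passed between the lines. With doxycycline, averaged over both lines, 1 marker rose and 1 fell, against 1.52% and 1.6% of all genes. Kdr of the endothelial list rose (0.76 ± 0.07, limma adjusted p = 0.0116), and Krt19 of the epithelial list fell (-0.87 ± 0.14, adjusted p = 0.038). Of the 11 mesenchymal markers, all measured, 2 were higher and 2 lower in treated δ cells. Pdgfrb was higher by 2.26 ± 0.12 and Col1a2 by 0.44 ± 0.11, while Fbn1 was lower (-0.78 ± 0.10) and so was Col1a1 (-0.59 ± 0.12). The summed signal of the list was 754 to 762 in treated δ cells and 792 to 864 in treated β cells. The part of these differences in those of the WNT genes was not tested, and in bulk RNA fewer cells of a kind and less RNA per cell cannot be told apart.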

How the data were processed

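RNA of 8 samples was measured on one-colour Agilent mouse arrays from 200 ng of total RNA labelled with Cy3, per the labels. The authors used Agilent Feature Extraction 11.5.1.1 on the images, per the file headers. The deposited intensity of a spot is linear, has its background subtracted and its spatial trend removed, and is not scaled between arrays. The recorded size of the multiplicative detrending was 0 on both treated δ arrays and the second treated β array, 0.0811 on the first and 0.0671 to 0.126 on the untreated arrays. Flags for spots well above background are the software's. Groups were taken from the titles, since the genotype label of untreated samples names the wild type. The files hold no gene names. A RefSeq gene table (GRCm38.p6) named 32994 of 56605 probes by transcript accession, and the other 23611 were not tested among genes; it was used for names and neighbours. Its promoter table gave the sequences.

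The log2 intensity was averaged over unflagged spots of a probe (98 probes had none on some array), and each array's 75th percentile over probes was subtracted. A probe was kept if both arrays of some group showed it well above background, and the brightest per gene gave 19023 genes. No probe was saturated. One mean per group was fitted by lmFit and eBayes of limma 3.58.1 in R 4.3.3, leaving 4 residual degrees of freedom, with Benjamini-Hochberg adjustment over all genes. The 6 contrasts were doxycycline in each line, its average and its difference, and the line with and without doxycycline. A bound on a fold sets the brighter mean against the mean, over the arrays of a group not well above background, of the probe's own signal or, where higher, the lowest signal well above background. With so few arrays per group the precision is limited.

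Per-array values are given for genes that passed in any contrast, had one of the 6 largest differences of a contrast, had one of the 3 brightest probes of their role, or had a bound of at least 2-fold. Wnt3, Wnt7b, Sfrp2, Wnt5a and the further averages named were added after their values were seen. Pathway genes are named only if they passed. The members and lists were chosen with earlier results of these data known. Alternatives were another background correction, scalings, filters, probe summaries, a variance trend, the 4 arrays of a comparison alone, a slide column block, deviant tiles left out and each array left out; the signal before multiplicative detrending was added after seeing the data. For normexp the median signal (offset 50) stood in for the mean signal, which was not used here. The fit recovered known line differences in simulated data, which had independent spread and held no doxycycline difference, dark area or slide-row effect. Replicates of a group correlated at 0.994 to 0.997 across genes, except 0.965 in untreated δ cells (0.994 without deviant tiles), and no pair was identical. Arrays of a line in the same slide column did not deviate together (correlation 0.01 in the δ line and 0.05 in the β line), so the column was not taken as a pairing.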

Additional observations from a re-analysis of the deposited data

How the results depend on the processing

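Sfrp4, Wnt10a, Wnt6 and Rspo1 kept their direction and passed between the lines in all 18 alternatives run for each comparison. Wif1 did so in the 17 that held its probe. Wnt2 did too in its 17, but its probe was kept through the δ groups alone, so this is no separate support for its difference. The number of genes of the group that passed between the lines was 11 with doxycycline and 7 to 13 with 1 array left out, and 12 without doxycycline and 8 to 15 with 1 array left out, or 7 in a fit of the 4 untreated arrays alone. For doxycycline the counts moved more. In the β line 0 became 3 with only the probes measured above background on every array, 2 without deviant tiles and 1 with an intensity trend, and 0 to 1 with 1 array left out. In the δ line the range with 1 array left out was 0 to 3, and for the difference between lines 0 to 2. Averaged over both lines, the 5 genes all lost their call after normexp, where 2 others passed, 1 of the 5 passed after median centring and 3 as means over probes. The count was 0 with the signal before multiplicative detrending and 0 to 10 with 1 array left out. The cause was not tested.

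With the slide column as a replicate block the average doxycycline comparison gave 0 genes in place of 5, and each line alone 0. The number in the titles is a slide position, and whether it pairs cultures is not known. Only 1 pair of columns exists in each line.

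Gene names of the array's own files could not be tried, since the files hold none, and that alternative was not run. Of the single-gene results under alternatives, 618 kept their side of the threshold, 103 lost it and 7 gained it, and 0 reversed. Probes near background limit Wnt2, Wnt3, Wif1, Dkk4 and Wnt7a, and no value can be given for the 8 genes below background.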
